A study of Homo sapiens with 72 samples.

Results

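The genes described here are those whose promoters carried H3K4me2 and H3K27me3 together in untreated REH, a cell line from B cell acute lymphoblastic leukemia. A gene was included when the 2001 bp window around at least 1 annotated start, 1 kb on each side, overlapped an H3K4me2 peak in at least 2 of 3 libraries and an H3K27me3 peak in at least 2 of 3. The members were thus chosen by the peak calls of those 6 libraries, which are given below as a description and support no test. Of 20033 protein-coding genes, 890 (4.44%) met this rule. The windows of their 3309 starts that met it form 885 distinct loci, of which 66 hold more than 1 member. Some genes have such starts at more than 1 locus. The study profiled 3 histone marks, H3K4me2, H3K4me3 and H3K27me3, by Cut&Tag in REH, in NALM6, another B cell acute lymphoblastic leukemia line, and in Raji, a Burkitt lymphoma line. Each line was left untreated or cultured with 1 nM bryostatin (overnight by the labels, for a day by a legend of the study), with 3 replicates of each mark and 54 libraries in all. Cut&Tag uses an antibody to direct a transposase to chromatin with a given mark, and the DNA that the transposase cuts out there is sequenced. The labels do not say that replicates came from separate cultures, so every p-value measures only the spread between these libraries.

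H3K27me3 is laid down by the EZH2 enzyme of Polycomb repressive complexes and accompanies silenced genes, whereas methylated H3K4 accompanies active or accessible promoters. Promoters with both, called bivalent, are best known from embryonic stem cells, where they belong to developmental regulators that are held silent while able to be activated. Bryostatin is a macrolide that binds the diacylglycerol site of protein kinase C and related proteins. Since the libraries were made from many cells, a promoter with both marks cannot be told apart from a mixture of cells that carry 1 mark each.

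Bivalent promoters were rich in CpG, and 4 of them are shown with each CG in capitals. They were taken from the genes that also met the rule in untreated Raji and NALM6, which DLX2, SLC2A8 and LGR6 did in Raji only with H3K27me3 replicate 2. Each stretch is the 250 bases before the gene's RefSeq start on build GRCh38.p14, written 5′ to 3′ on the strand of the gene. DLX2, a homeobox factor of forebrain and limb development, has 25 CG at chr2:172102901-172103150 on the minus strand. NRCAM, a neuronal cell adhesion molecule, has 29 at chr7:108456437-108456686 on the minus strand. SLC2A8, a glucose transporter, has 22 at chr9:127396919-127397168 on the plus strand. LGR6, an R-spondin receptor, has 8 at chr1:202193549-202193798 on the plus strand.
DLX2: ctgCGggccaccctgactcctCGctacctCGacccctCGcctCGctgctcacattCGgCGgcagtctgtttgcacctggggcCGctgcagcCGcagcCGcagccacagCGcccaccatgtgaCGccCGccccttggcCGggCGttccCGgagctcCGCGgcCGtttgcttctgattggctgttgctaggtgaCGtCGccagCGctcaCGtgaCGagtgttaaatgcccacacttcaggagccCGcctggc
NRCAM: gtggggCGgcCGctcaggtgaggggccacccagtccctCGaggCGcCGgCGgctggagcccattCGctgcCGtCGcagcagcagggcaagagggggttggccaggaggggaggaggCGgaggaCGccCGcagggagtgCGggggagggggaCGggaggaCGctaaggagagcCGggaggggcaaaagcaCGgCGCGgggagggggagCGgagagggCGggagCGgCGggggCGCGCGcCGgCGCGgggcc
SLC2A8: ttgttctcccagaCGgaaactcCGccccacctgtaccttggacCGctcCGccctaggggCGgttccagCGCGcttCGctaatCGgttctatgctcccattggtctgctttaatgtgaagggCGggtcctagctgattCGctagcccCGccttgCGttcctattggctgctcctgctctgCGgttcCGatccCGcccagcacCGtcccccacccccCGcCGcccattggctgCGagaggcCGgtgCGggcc
LGR6: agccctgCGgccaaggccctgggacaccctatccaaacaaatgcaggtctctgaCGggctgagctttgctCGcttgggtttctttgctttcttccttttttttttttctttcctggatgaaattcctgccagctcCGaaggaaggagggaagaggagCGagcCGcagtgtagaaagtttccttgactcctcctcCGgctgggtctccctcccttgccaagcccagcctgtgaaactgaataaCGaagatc

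Over the 300 bases at the start, 250 before it and 50 after, the bivalent genes held a median of 32 CG (interquartile range 23 to 39). The 10067 genes with H3K4me2 but without H3K27me3 in untreated REH held 28, and the 1557 genes with H3K27me3 but without H3K4me2 held 12, against 23 over all genes. Counting as CpG-rich a start with over 50% GC and with over 0.6 of the CG that its base composition predicts, 86.0% of the bivalent genes were CpG-rich. The share was 86.5% with H3K4me2 alone, 40.1% with H3K27me3 alone and 65.3% over all genes. The bivalent starts thus had the CpG content of the H3K4me2 class, unlike those with H3K27me3 alone.

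Across 19 gene lists drawn up with earlier results of these data known, 16 lists had members, all at a share above the 4.44% of all genes. The lists hold 109 of the 890 members, and no test of enrichment was made. The highest shares were those of the ephrins and Eph receptors, which guide cell contacts (6 of 22 genes), and of transcription factors of other blood lineages (8 of 30). WNT, FGF, BMP and hedgehog ligands contributed 17 of 79, among them WNT11, BMP6, INHBB and WNT4. Potassium, sodium and calcium channels contributed 19 of 135, among them CACNA1C, CACNA1G and KCNH3. No member came from 400 olfactory receptors, 86 ribosomal protein genes or 53 clustered protocadherins.

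Homeodomain genes of the HOX clusters, which set position along the body axis, gave 4 of 39 (HOXB9, HOXC6, HOXC8 and HOXC9). Other homeobox families gave 11 of 130, led by DLX2, DLX1, LHX6 and LHX9, and basic helix-loop-helix factors gave 7 of 62, led by ATOH8, BHLHE23 and the Notch targets HES7 and HES1. Forkhead, SOX, TBX and GATA factors gave 6 of 92, led by GATA2, TBX1, TBX2 and FOXO6. Collagens gave 5 of 44, led by COL4A2 and COL13A1, and neurotransmitter receptors gave 7 of 116, led by SSTR2 and HTR1D. Factors of other blood lineages were GATA2 of stem and mast cells, the T cell factors TCF7, BCL11B and TBX21, CEBPD of myeloid cells, LMO1, RUNX2 and RUNX3.

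Of the B lineage factors, 2 of 25 were bivalent, namely IRF4, which is needed for plasma cells, and POU2F2, an octamer-binding factor. The early response genes, which cells induce within minutes of a stimulus, gave 7 of 38. They were ATF3, EGR1, FOS, KLF2, NR4A2, SPRED2 and SPRY4. Cell cycle regulators gave 3 of 12, the D cyclins CCND1 and CCND2 and the inhibitor CDKN1C. Writers, erasers and readers of the profiled marks gave 4 of 35, among them BMI1, CBX6 and CBX8, subunits of Polycomb repressive complex 1. The diacylglycerol binders, the class of proteins to which bryostatin's targets belong, gave 4 of 29, among them the diacylglycerol kinases DGKG and DGKZ and the Rac regulator CHN1. Immune ligands gave 2 of 34, NECTIN1 and the NKG2D ligand ULBP2.

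The libraries differed in depth and in the number of peaks. Mapped reads, as read from the smallest step of the coverage, ranged from 10.2 M to 39.0 M (mega) in REH, and a missing peak was not read as absence of the mark. In untreated REH, H3K4me3 lay in 3 of 3 libraries at 5 of 6 B lineage markers and at 4 of 5 precursor B markers, whereas 8 of 9 markers of T cells, myeloid cells and erythroid cells had it in 0. VPREB1, a defining precursor B gene, had it in 0 libraries. The second of the Raji untreated H3K27me3 libraries stood apart, since 34.8% of its peaks overlapped H3K4me3 peaks against 0.819% to 7.20% in the other 17 H3K27me3 libraries. It also had a peak at 75 of 86 ribosomal protein genes, against at most 3 in the others. The 6 libraries of NALM6 replicate 1 carry signal on another scale.

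The members lay mostly well inside the rule. Both marks were found in 3 of 3 untreated REH libraries at 741 genes, and 149 had a mark in exactly 2 of 3. Just outside lay 229 genes with enough H3K4me2 libraries and 1 H3K27me3 library at a start, and 88 with enough H3K27me3 libraries and 1 H3K4me2 library. These figures describe the rule itself and carry no test. The share of genes that were bivalent was 0.931% on chromosome X (8 of 859) and between 2.95% and 6.50% on each autosome.

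At nearly every member the peaks of both marks covered the same DNA. In at least 2 of the 3 pairs of same-numbered untreated libraries they shared bases in the window at 879 of 890 genes (98.8%). The median shared stretch was 1914, 1880 and 1630 bp of the 2001 bp window. In the bryostatin libraries, which the rule did not use, the count was 775 (87.1%). Where both peaks were called there, they overlapped at 99.2% to 99.5% of members, over a median of 1854, 1768 and 1848 bp. Across untreated and bryostatin libraries, each mark alone covered most of the window, with medians of 1806 to 1997 bp (H3K4me2) and 1809 to 2001 bp (H3K27me3). Overlap was thus nearly fixed where both peaks were called, and the shares are a description. GATA2, EPAS1, a hypoxia-inducible factor, and the collagen hydroxylase P3H3 were among those with both marks over the full window.

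The height of H3K27me3 at bivalent promoters was not lower than at promoters with H3K27me3 alone. In the bryostatin libraries the median member's peak rose to 1.77, 1.86 and 2.18 times the library's median H3K27me3 peak, against 1.31, 1.57 and 1.79 times at genes with H3K27me3 alone. The members' peaks were shorter, with medians of 4390, 3360 and 3875 bp against 5550, 3830 and 4870 bp. In each bryostatin library both differences ran the same way. In the untreated libraries, which the rule used, the members' H3K27me3 peaks were shorter in replicates 1 and 2 but longer in replicate 3 (2850 against 2485 bp). For H3K4me2 the bryostatin libraries gave heights of 1.56, 1.22 and 1.22 times the median peak, against 1.35, 1.06 and 1.00 at genes with H3K4me2 alone.

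H3K4me3, which the rule did not use, was called at a smaller share of bivalent genes, at the starts that met the rule, than of all genes. It was found in at least 2 of 3 untreated REH libraries at 337 members (37.9%) against 49.4% of all genes. Members were counted only at the starts that met the rule and all genes at any annotated start, which can lower the members' share. The libraries differed widely, with a peak at 75.6%, 25.7% and 37.6% of members (mean 46.3% ± 26.1, SD, n = 3) and at 58.2%, 42.3% and 49.3% of all genes. Their depths were 27.9 M, 18.8 M and 10.2 M mapped reads, and the deepest, replicate 1, was the only 1 in which the members exceeded all genes. The part of depth in this was not tested. Where a peak was called it was low, at 0.418, 0.711 and 0.524 times the library's median H3K4me3 peak, whereas genes with H3K4me2 alone reached 1.26, 1.06 and 1.11 times. In all, 226 members had H3K4me3 in 3 of 3 libraries and 216 in 0.

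Window signal was defined as the peak signal inside the window, as a multiple of the median over the starts that had a peak in that library. By this measure the highest H3K4me3 among members was at PHRF1 (2.57, 2.09 and 2.72 in the untreated libraries), NBPF1 (2.57, 2.08 and 1.85) and NR6A1, an orphan nuclear receptor (2.37, 1.84 and 2.18). IGF1R, the insulin-like growth factor receptor, ENAH and ZDHHC14 followed. At PHRF1, H3K27me3 was near the limit of detection, at 0.407 and 0.316 with no peak in the third library. GATA2 had the opposite balance. Its H3K27me3 window signal was 7.22, 8.62 and 11.3 untreated and 6.49, 9.70 and 12.8 with bryostatin, its H3K4me2 was 0.901, 0.806 and 0.620, and H3K4me3 was absent at this start from all 3 untreated libraries.

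The members with and without H3K4me3 differed in the libraries that the rule did not use. With bryostatin, the 337 members with H3K4me3 had a median H3K27me3 window signal of 0.705, 0.886 and 1.04, against 1.16, 1.54 and 1.79 at the 553 others. Their H3K27me3 covered a median of 1560, 1564 and 1798 bp of the window, whereas the others were covered throughout. In untreated NALM6, H3K27me3 without H3K4me2 was found at 16.6% of the former and 39.6% of the latter, and both marks at 30.3% and 15.4%. In untreated Raji, with H3K27me3 replicate 2 included, the same shares were 17.5% and 31.8%, then 32.05% and 17.0%. H3K27me3 with or without H3K4me2 thus differed far less between these sets of members than H3K27me3 alone did. No test was made over members, since neighbouring genes share peaks.

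In untreated NALM6, 187 members (21.0%) met the same rule, against 2.52% of all genes. In this and the Raji comparison, members were counted at the starts bivalent in REH and all genes at any start. H3K27me3 alone remained at 275 (30.9%), H3K4me2 alone at 170 (19.1%) and neither at 258 (29.0%). Without replicate 1 the count with both marks was 172 (19.3%). In untreated Raji, 202 members (22.7%) met the rule against 4.83% of all genes, but this rested on H3K27me3 replicate 2. Without that library, both others being required, 42 members (4.72%) and 0.399% of all genes met it. Of the libraries left, replicate 1 had 819 H3K27me3 peaks from 5.12 M mapped reads. It had a peak at 10.0% of members, which capped this share, whereas replicate 3 had a peak at 65.1%. With H3K27me3 required in 3 of 3 libraries, and H3K4me2 likewise, 3.24% of the members with both marks in 3 of 3 REH libraries had both in Raji and 4.72% in NALM6. This too required replicate 1, which had H3K27me3 at 10.0% of members in Raji and 17.0% in NALM6.

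Counted over all libraries, 68 members had both marks in the 3 lines and 569 in REH alone. Without Raji H3K27me3 replicate 2, a choice made after seeing the data, the numbers were 18 and 679. Raji replicate 1, with H3K27me3 at 10.0% of members, was then required, which limits what these numbers show. Median CpG was 30.5 CG in the 68 and 32 in the 569. Among the 68, those with the highest H3K27me3 in bryostatin-treated REH were NXPH4, DLX2, SPNS2, GALNT6, NRCAM, DNAJC22, SLC2A8, LGR6, HES7 and HES1. Of these 10, SPNS2, NRCAM and DNAJC22 had both marks in Raji without replicate 2. The 4 whose sequences are printed above differed in H3K4me3. DLX2 had an H3K27me3 window signal of 7.30, 5.35 and 6.19 in untreated REH and no H3K4me3 peak in replicates 2 and 3. SLC2A8 had H3K27me3 at 2.91, 2.96 and 2.49, and in Raji its H3K4me3 reached 1.31, 1.41 and 1.21. LGR6, the CpG-poor promoter of the set, had H3K27me3 at 3.79, 2.91 and 5.00 and no H3K4me3 in either line.

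The B cell factor IRF4 was bivalent in REH and not in the other lines. Marks in this paragraph are those at the starts that met the rule in REH, and other starts of these genes are not covered. In untreated REH its H3K27me3 window signal was 3.81, 2.92 and 3.43, and no H3K4me3 peak was called in any library. In Raji and NALM6, H3K4me3 was called in 3 of 3 untreated libraries of each and the state was H3K4me2 alone. POU2F2 went the other way, with both marks in Raji and H3K27me3 alone in NALM6. At the starts that met the rule it had no H3K4me3 in any untreated library of the 3 lines. GATA2, the 4 HOX genes, SPRY4, DGKG and DGKZ had H3K27me3 alone in both other lines, which in Raji held for HOXB9, HOXC6 and DGKG without H3K27me3 replicate 2. ATF3 had both marks in both, in Raji also without that library. CBX8, FOS, NECTIN1 and ULBP2 had both marks in both, and in Raji this rested on replicate 2. RUNX3 had H3K4me2 alone and H3K4me3 in 3 of 3 libraries in Raji, against H3K27me3 alone in NALM6.

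To compare signal between groups, peaks of the 6 libraries of a comparison were merged into regions, and the summed signal of each region called in all 6 was expressed as a multiple of that library's median region (region signal). limma was fitted to the log2 values over all regions, with Benjamini-Hochberg adjustment at 0.05. H3K4me3 differed widely between untreated REH and Raji. Of 122 members tested, 98 (80.3%) differed, 57 higher and 41 lower in REH, where 51.0% of all genes tested differed, 26.6% higher and 24.8% lower. The split rested on centring each library on its median region. Without it the median over all regions moved from 0.02 to 0.20 on the log2 scale, 67 members differed, 47 higher and 20 lower, and 1206 genes in all, 978 higher and 232 lower. Only members with H3K4me3 in all libraries of both lines could be tested, which leaves out most of them.

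At MAPRE2, which encodes a microtubule end-binding protein, region signal was 1.04, 1.06 and 0.987 in REH and 0.0367, 0.0865 and 0.0851 in Raji, a log2 difference of 3.99 (SE 0.31, limma adjusted p = 6.07e-06). TNRC6C, a microRNA silencing factor, had 1.34, 1.28 and 1.13 in REH against 0.104, 0.0967 and 0.142 in Raji (log2 3.47). The REH libraries lay far above the Raji libraries at both. IGF1R went the same way, at 2.98, 2.95 and 2.82 against 0.263, 0.425 and 0.437. The region shared by LRP1 and STAT6 (log2 3.30), FOS (2.90) and ATF3 (2.50) were also higher in REH. CNN2, an actin-binding calponin, was lower, at 0.583, 0.562 and 0.525 against 3.23, 2.76 and 2.83 in Raji (log2 −2.40, SE 0.09, adjusted p = 1.48e-07). Groups did not overlap at any of these genes.

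Against NALM6, 25 of 102 members differed (24.5%), 6 higher and 19 lower in REH, where 7.11% of all genes tested differed, 4.19% higher and 2.93% lower. The count depended on NALM6 replicate 1, whose files carry another scaling, since 110 members differed without it, 64 higher and 46 lower. Without NALM6 replicate 2 the count was 16, and without REH replicate 1 or replicate 3 it was 15. FLT1, a VEGF receptor, was lower in REH, with 0.645, 0.645 and 0.588 against 2.38, 2.66 and 2.62 in NALM6 (log2 −2.03, SE 0.12, limma adjusted p = 0.000918). CHST2 (log2 −2.63), the TGF-beta inhibitor SMAD7 (−2.86), the adenylate kinase AK4 (−2.55) and the cytokine signalling inhibitor SOCS2 (−2.17) were lower too. ZIC2, a zinc-finger factor of brain development, was higher in REH, at 3.47, 3.47 and 3.19 against 0.893, 0.494 and 0.466 (log2 2.52, SE 0.26, adjusted p = 0.00391). SMAD7 and AK4 were also lower in REH than in Raji, by 2.28 and 2.25 on the log2 scale.

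Bryostatin left most bivalent promoters of REH bivalent. By the same rule 872 genes were bivalent with bryostatin, of which 801 were members, 90.0% of the untreated and 91.9% of the bryostatin set. At a shared start, 800 members (89.9%) kept both marks, 57 (6.40%) had H3K4me2 alone, 30 (3.37%) H3K27me3 alone and 3 neither. Members had H3K4me2 in 99.8%, 96.3% and 84.7% of cases in the 3 bryostatin libraries (mean 93.6% ± 7.88, SD, n = 3) and H3K27me3 in 77.9%, 93.4% and 97.8% (89.7% ± 10.5). H3K4me3 was found in at least 2 libraries at 311 members (34.9%), at the starts that met the rule, against 48.5% of all genes at any start. No member went from H3K4me3 in 0 of 3 libraries to 3 of 3, or the reverse.

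H3K27me3 was called in 0 of 3 bryostatin libraries at 12 members. These were the early response factors EGR1 and FOS, the neonatal Fc receptor FCGRT, the potassium channels KCNK6 and KCNS3, the lipoprotein receptor LRP1 and its neighbour STAT6, MAPRE2, NFATC1, SLC16A6, SLC45A3 and ZNF799. EGR1 had an H3K27me3 window signal of 0.933, 0.697 and 0.643 in the untreated libraries and no peak in any bryostatin library. FCGRT had 0.351, 0.373 and 0.313 and then none, and NFATC1 had 0.190, 0.194 and 0.0585. At all 3 the untreated signal was below that of the median start with a peak. In the other direction, 8 of the 872 genes bivalent with bryostatin had H3K27me3 in 0 of 3 untreated libraries, among them the Wnt receptor FZD4 and TNFRSF11B. Only BHLHA9 had H3K4me2 in 0 of 3 bryostatin libraries, and its untreated H3K4me2 window signal was 0.0128 and 0.00201 in replicates 1 and 2.

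Under bryostatin the H3K4me2 changes that passed the threshold in REH were mostly gains. Of 756 members tested, 12 (1.59%) passed, 11 higher and 1 lower, where 0.709% of all genes tested passed, 0.669% higher and 0.0405% lower. Over the 716 member regions tested the median log2 change was −0.09, with 551 of them lower, against −0.02 over all regions. The gains were thus not the direction of the set. The untreated libraries of this comparison also chose the members, so these counts and medians are a description. ITGB2, the beta 2 integrin of leukocytes, had a region signal of 3.28, 3.41 and 3.42 untreated and 6.92, 7.32 and 7.34 with bryostatin (log2 1.09, SE 0.08). PTPN7, a phosphatase of lymphoid cells that acts on MAP kinases, went from 0.777, 0.560 and 0.477 to 1.75, 1.96 and 1.42 (log2 1.52, SE 0.16). SPRY4, a Sprouty inhibitor of Ras-MAP kinase signalling, went from 1.38, 1.37 and 1.22 to 2.62, 2.84 and 2.59 (log2 1.02, SE 0.09). The bryostatin libraries lay above all untreated libraries at each of these genes.

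TMEM233 (log2 0.96), SH3BP2 (0.95), STX1A (0.88), ARHGAP23 (0.80), FCGRT (0.79), the neuropeptide precursor VGF (0.60), RASD2 (0.50) and AGRN (0.42) were the other gains. SPRED2, another inhibitor of Ras signalling, was lower, at 2.79, 2.56 and 2.81 untreated and 2.00, 2.00 and 2.24 with bryostatin (log2 −0.39, SE 0.08). The called length of the regions grew with the signal. At SPRY4 the mean called length of the region went from 5430 to 7600 bp and at VGF from 7010 to 11680 bp. With signal taken per base 0 members passed, and with the maximum of each region 5. Without bryostatin replicate 1 the count was 7. AGRN was called in 0 of the 6 fits that left out 1 library, STX1A and SPRED2 in 1, and SH3BP2 and RASD2 in 3. Per base, RASD2 (log2 −0.44), ARHGAP23 (−0.06) and VGF (−0.05) were lower rather than higher. Same-numbered libraries deviated together in this comparison, and a fit with replicate as a block gave 21 members, 12 higher and 9 lower.

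H3K4me3 in REH, which the rule did not use, passed the threshold at 16 of 218 members (7.34%), where 1.50% of all genes tested passed. It was higher at 12, against 0.761% of all genes, and lower at 4, against 0.736%. AHNAK, a giant scaffold protein, had a region signal of 0.425, 0.445 and 0.299 untreated and 0.892, 1.07 and 1.15 with bryostatin (log2 1.43, SE 0.15, limma adjusted p = 0.000422). At HMGA2, an architectural chromatin protein of embryonic tissue, it went from 1.16, 1.06 and 0.937 to 1.77, 1.70 and 2.00 (log2 0.80, SE 0.09, adjusted p = 0.00057). The start region shared by FHOD1 and SLC9A5 went from 1.02, 1.16 and 0.963 to 1.93, 2.12 and 1.93 (log2 0.93, SE 0.08, adjusted p = 0.000123). At all these regions the bryostatin libraries lay above the untreated libraries.

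FOS, which had no H3K27me3 peak with bryostatin, gained H3K4me3. It went from 1.00, 0.905 and 0.859 to 1.44, 1.44 and 1.50 (log2 0.67, SE 0.07, limma adjusted p = 0.00057). EGR1 passed narrowly, from 1.13, 1.15 and 1.06 to 1.45, 1.31 and 1.43 (log2 0.33, SE 0.07, adjusted p = 0.0312), and in 2 of the 6 fits that left out 1 library. Per base its log2 was −0.38, and the called length went from 2820 to 4857 bp. CDC42EP3 (log2 0.61), KCNS3 (0.49), the region of WDR59 and ZNRF1 (0.42), SPRED2 (0.42) and the axon guidance ligand SLIT2 (0.37) were also higher. At SPRED2 the H3K4me2 call was the opposite of the H3K4me3 call, and leaving out 1 library raised the adjusted p up to 0.239 for H3K4me2 and 0.118 for H3K4me3. SEMA6A, a semaphorin, was lower, from 0.969, 0.921 and 0.932 to 0.555, 0.518 and 0.478 (log2 −0.87, SE 0.08, adjusted p = 0.000285). The endothelin-processing enzyme ECE1 (−0.53), TMEM121 (−0.44) and PLEKHH3 (−0.28) were lower too.

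The number of H3K4me3 calls moved with single libraries. It was 9 without untreated replicate 2, 29 without untreated replicate 3, and 7, 7 and 6 without bryostatin replicates 1, 2 and 3. SEMA6A, AHNAK, HMGA2, FOS, FHOD1 and SLC9A5 were called in each of the 6 fits that left out 1 library, and the other 10 members in 2 to 4 of them. Same-numbered libraries deviated together here too, and a fit with replicate as a block gave 26 members. With the maximum signal 5 passed, with no centring 6, and with signal per base 0.

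For H3K27me3 in REH, 0 of 698 members passed in limma and 0.0% of all genes tested did. At an unadjusted p under 0.05 there were 100 (14.3%), against 5.66% of all genes. The median SE at members was 0.31 on the log2 scale, against 0.10 for H3K4me2, so a count of 0 does not show that H3K27me3 was unchanged. The median log2 change was −0.44 over the 643 member regions, 630 of them lower, against −0.04 over all regions and −0.03 at genes with H3K27me3 alone. This shift rested on untreated replicate 3, without which it was −0.05, against 0.06 over all regions. The untreated libraries helped to choose the members, so these values are a description. For the 872 genes bivalent by the bryostatin libraries, of which 801 were members, the median was −0.40. At the genes bivalent by the bryostatin libraries alone it was −0.16 over 31 regions, against −0.13 over all regions at a start.

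As a set, but not at each gene, members that gained an H3K4 mark had lower H3K27me3 values than members in general. The marks come from separate libraries. Of the 23 members higher in H3K4me2 or H3K4me3, H3K27me3 was called in 0 bryostatin libraries at 4 (EGR1, FCGRT, FOS and KCNS3), in 1 at ITGB2 and SPRED2 and in 2 at ARHGAP23. The other 16 of the 23 still had it in 3 of 3. Over all 890 members, 12 were at 0, 48 at 1, 144 at 2 and 686 at 3. These 16 genes had 16 tested H3K27me3 regions, all lower with bryostatin. Their median log2 was −1.13 (range −2.10 to −0.29), against −0.44 over all member regions. A log2 change below −1 was found at 9 of the 16, and at 2.96% of all member regions. Without untreated replicate 3 the medians were −0.70 and −0.05, all 16 were still lower, and 3 of the 16 lay below −1, against 1.23% of member regions. With signal per base the medians were −0.58 and −0.22, 15 of 16 were lower, and 3 lay below −1, against 0.933%. This is a description, with no test of the relation.

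At TMEM233, H3K27me3 region signal was 2.27, 2.78 and 6.89 untreated and 1.05, 0.832 and 0.623 with bryostatin (log2 −2.10, SE 0.37). At HMGA2 it was 1.17, 1.13 and 2.56, then 0.410, 0.532 and 0.495 (log2 −1.66, SE 0.33), and at AHNAK 2.15, 2.78 and 7.24, then 1.47, 1.41 and 1.22 (log2 −1.37, SE 0.37). The libraries of the groups did not overlap at any of the 3, and the third untreated library was the highest at each. PTPN7 had the largest H3K4me2 gain and little change in H3K27me3, from 1.85, 2.60 and 3.01 to 2.04, 1.86 and 2.07 (log2 −0.29, SE 0.22). APCDD1, a Wnt inhibitor named after its values were seen, had the lowest log2 of all members at −2.24 (SE 0.32), from 1.73, 2.14 and 4.31 to 0.593, 0.468 and 0.542. With the maximum of each region in place of its total, 14 members passed, all lower, among them APCDD1, TMEM233, VGF, RASD2, AHNAK and HMGA2. Without untreated replicate 3, APCDD1, TMEM233 and SMAGP passed, and without untreated replicate 1 APCDD1 and TMEM233.

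In Raji, H3K4me3 at FOS was the only member call under bryostatin, 1 of 207 members tested, where 0.131% of all genes passed. Its region signal went from 0.119, 0.161 and 0.190 to 0.410, 0.453 and 0.456 (log2 1.51, SE 0.22, limma adjusted p = 0.0288). FOS gained H3K4me3 in REH as well, from a level that was higher before treatment. Its adjusted p in Raji was 0.0559 to 0.253 when any 1 of the 6 libraries was left out. Leaving out untreated replicate 1 or 3, or any bryostatin replicate, gave 0 calls, and leaving out untreated replicate 2 gave ITGB2 alone. Same-numbered libraries deviated together, and a fit with replicate as a block gave 12 members. ITGB2 (log2 1.41, adjusted p = 0.000262) and EGR1 (log2 0.78, adjusted p = 0.00593), both higher in an H3K4 mark in REH, were among them.

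The remaining comparisons gave no member past the threshold. In Raji these were H3K4me2, with 0 of 291 members (0.0% of all genes) and 23 at an unadjusted p under 0.05 (7.90% against 5.85%), and H3K27me3, with 0 of 106 (0.0%) and 5 unadjusted (4.72% against 3.02%). In NALM6 they were H3K4me2, with 0 of 242 (0.0%) and 2 unadjusted (0.826% against 0.921%), and H3K4me3, with 0 of 87 (0.0%) and 4 unadjusted (4.60% against 0.276%). For H3K27me3 in NALM6 it was 0 of 89 (0.0%), with 2 unadjusted (2.25% against 0.889%). Fewer members could be tested in these lines because fewer carried a peak in all 6 libraries, and the median SE at members was 0.17 to 0.40 on the log2 scale. The counts of 0 therefore do not show that the marks were unchanged, and an effect in REH was not tested against its size in NALM6 or Raji.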

How the data were processed

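Peak files of 54 Cut&Tag libraries were used, and 18 IgG samples were not analysed here. Per the submitters' processing notes the authors used bcl2fastq, Trim Galore, Bowtie2, SEACR and DESeq2 with hg38; versions and SEACR settings are not given in the sources used here. Each deposited peak gives the total and maximum signal of the coverage, which the authors normalized to RPKM in 10 bp bins; the 6 files of NALM6 replicate 1 carry another, unstated scaling. SEACR called peaks in each library separately. Depth was read from the RPKM step, and wider or deeper calling raises total signal.

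Starts came from GENCODE 44, and CpG from the hg38 sequence at them. Peaks of chromosomes 1 to 22, X and Y were merged where they shared at least 1 bp. The 6 libraries of each comparison were fitted with limma 3.58.1 (eBayes with trend, R 4.3.3) on log2 total signal, centred per library on the median region, with p-values adjusted over all regions. The fit was tested on simulated data, in which most planted changes went uncalled for H3K27me3 and for every mark in NALM6. For H3K27me3 in REH, 0 of 100 were called at a log2 of 1 and 0 of 100 at 0.5. For H3K4me2 in Raji, 65 of 100 were called at a log2 of 1 and 9 of 100 at 0.5. For REH against NALM6 these numbers were 39 and 0 of 100. Same-numbered libraries deviated together (r over 0.1 in every pair) for H3K4me2 and H3K4me3 in REH (0.131 to 0.311) and H3K4me3 in Raji (0.482 to 0.540). The same held for all marks in NALM6 (0.401 to 0.676), and not elsewhere. In NALM6, however, replicates 2 and 3 also deviated together across numbers (0.354 to 0.565). Replicate 1 there went against both (−0.408 to −0.675), so the numbers did not pair the NALM6 libraries. The pairing comes from this check and not from the labels. Alternatives were maximum signal, signal per base, no centring, a looser region filter, the replicate block, each library left out, and other windows and peak sets; leaving out all NALM6 replicate 1 libraries or Raji H3K27me3 replicate 2 was chosen after seeing the data.

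The members and gene lists were chosen with earlier results of these data known. Named were members on the shorter lists, the 4 of highest bryostatin H3K27me3 on the others, the largest changes per comparison, and those with the highest H3K4me3, the longest shared stretch, both marks in 3 lines, or a mark in 0 bryostatin libraries. A few genes that this rule names are not reported here. Tables were handled with Python 3.11.15, numpy 2.4.6 and pandas 2.3.3, and figures drawn with matplotlib 3.10.9.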

Additional observations from a re-analysis of the deposited data

Results flagged for a closer look

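ECE1, which encodes an endothelin-converting enzyme, was picked out because its H3K4me3 log2 changes with bryostatin had opposite signs in 2 lines. In REH the region signal was 0.807, 0.842 and 0.861 untreated and 0.640, 0.608 and 0.503 with bryostatin (log2 −0.53, SE 0.10, limma adjusted p = 0.0186). In Raji it was 4.34, 4.75 and 4.83 untreated and 5.22, 5.33 and 5.40 with bryostatin (log2 0.1984, SE 0.08, limma adjusted p = 0.825). The libraries of the groups did not overlap in either line, but the Raji change did not pass the threshold. The REH call held in 3 of the 6 fits that left out 1 library. It did not hold with maximum signal, signal per base or no centring. The difference between the lines was not tested.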

How the results depend on the processing

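The number of members was 680 to 972 under the other windows, starts and peak sets and without each library of the rule, but 464 with the upper 0.5 of peaks. With 3 of 3 libraries required, both marks were found at 75.4% of the 741 members left in bryostatin-treated REH, 3.24% in Raji and 4.72% in NALM6. With peak numbers made equal between the libraries of a line and mark, it was 3.68% in Raji and 5.44% in NALM6. That cut kept 819 H3K27me3 peaks per library in Raji, 590 in NALM6 and 17141 in REH. It therefore limited the shares in Raji and NALM6 and did not make the lines equal. Without Raji H3K27me3 replicate 2, a choice made after seeing the data, Raji gave 4.72%, and the fits without 1 library gave 4.72% to 23.1%. For bryostatin in REH, H3K4me2 calls at members numbered 5 with maximum signal, 0 per base, and 7 to 14 with a library left out. H3K4me3 calls numbered 5 with maximum signal, 0 per base, 6 with no centring, and 6 to 29 with a library left out. H3K27me3 calls numbered 14 with maximum signal, 2 with the looser region filter, and 0 to 3 with a library left out. In Raji, H3K4me3 calls numbered 0 with maximum signal, 0 per base, 2 (FOS and ITGB2) with no centring, and 0 to 1 with a library left out. REH against NALM6 gave 11 per base, 0 with no centring, 85 with the looser filter, 15 to 110 with a library left out, and 104 with no replicate 1 of either line, the last chosen after seeing the data. The causes were not tested. The other comparisons kept their number of members called within 1.5 times under every alternative run, but REH against Raji gave 1206 genes over the whole genome with no centring, against 4028. H3K4me3 was found at 24.2% of members with 3 of 3 libraries required and 17.7% with the upper 0.5 of peaks. With the replicate block, calls numbered 21 for H3K4me2 and 26 for H3K4me3 in REH, 12 for H3K4me3 in Raji, 10 for H3K27me3 in REH and 16 for REH against NALM6; in the last 2 the numbers did not pair the libraries, and the block moved no other count by over 1.5 times. Depth limits what a missing peak means, above all for H3K27me3 in Raji and NALM6.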
